A study of Homo sapiens with 2 samples.

Results

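The 56 tRNA genes for asparagine (Asn) and aspartate (Asp) were followed in CLIP-seq libraries of hTrmt13 (TRMT13), the human relative of a yeast tRNA 2'-O-methyltransferase. They were taken by name from the 596 rows listed as tRNA, 37 as tRNA-Asn and 19 as tRNA-Asp, and 2 lookalike rows of these isotypes with 1 R1 count between them were left out. RNA crosslinked to hTrmt13 was pulled down by antibody from a human breast cancer cell line, MDA-MB-231, in 1 group of 2 replicates. The stated purpose was to find the tRNAs that the enzyme binds. There were 0 input or control libraries here, so a level describes what was recovered, and more RNA in the cells cannot be told apart from more binding. Whether the replicates came from separate cultures is not in the labels, so an SD may be technical spread.

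A replicate came as a pair of count tables, R1 for its first and R2 for its second mates. R1 summed to 27907799 and 20590398 counts in replicates 1 and 2, and R2 to 11246823 and 8793089. Levels are CPM, the counts scaled to the total of their table, from R1 unless stated. The mesenchymal marker VIM stood at 24.4 ± 15.1 CPM (SD, n = 2), whereas CD44, another marker of this line, stood at 0.385 ± 0.0637 CPM. Of the 5 genes listed as low in this line, ERBB2 stood at 6.92 ± 4.01, CDH1 at 1.96 ± 0.738, EPCAM at 1.01 ± 0.420, ESR1 at 0.557 ± 0.585 and PGR at 0.0971 ± 0.137 CPM (SD, n = 2 each). By these means all but PGR lay above CD44, but in replicate 1 ESR1 lay below it, at 0.143 against 0.430 CPM. Of the markers of other cell types, the neuronal RBFOX3 stood at 1.74 ± 1.25 and the leukocyte PTPRC at 0.331 ± 0.0124 CPM (SD, n = 2 each), and the liver gene ALB had no counts. These markers therefore give no clear check of the cell line.

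tRNA-Asn reads the asparagine codons and tRNA-Asp the aspartate codons, and each is charged by its own synthetase. In human cells both carry a G as the first anticodon base, which the QTRT1 and QTRT2 enzyme exchanges for queuosine, and in tRNA-Asp a sugar can be added to it. TRDMT1 methylates a cytosine in the anticodon loop of tRNA-Asp, and tRNA-Asn receives a threonylcarbamoyl group beside its anticodon. The yeast relative of hTrmt13 methylates the acceptor stem of glycine, histidine and proline tRNAs, so neither isotype belongs to its known yeast substrates. In a gene name the third field is the anticodon, the fourth is the isodecoder and the fifth is the copy. Copies of 1 isodecoder share 1 mature sequence, so reads of the mature tRNA cannot be assigned to a copy.

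Whole sequences were found for 2 of the 56 genes, and they show how close different isodecoders are. They were read from RefSeq promoter windows of the GRCh38.p14 build that cover the gene, in tRNA orientation, with the anticodon in capitals.
tRNA-Asn-GTT-4-1 (chr1:16889677-16889750, plus strand): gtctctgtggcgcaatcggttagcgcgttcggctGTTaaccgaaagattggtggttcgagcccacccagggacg
tRNA-Asn-GTT-6-1 (chr1:143735920-143735993, minus strand): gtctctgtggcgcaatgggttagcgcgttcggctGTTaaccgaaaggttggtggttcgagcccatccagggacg
The pair differed at 3 of 74 bases, written as C17G, A47G and C65T with tRNA-Asn-GTT-4-1 first and positions counted from its 5′ end. In both, the anticodon took bases 35 to 37. The stretch ggttcgagccc at bases 53 to 63, the place of the internal B box promoter, was the same in both. On either strand, 0.0142% of the 35116 RefSeq promoter windows of 300 bases held all of its 11 letters. For tRNA-Asp, a GENCODE 29 transcript of LINC00324 on GRCh38 holds the first 17 bases of tRNA-Asp-GTC-2-11 (chr17:8222293-8222309, minus strand), tcctcgttagtatagtg, shown because 11 of the 19 Asp genes carry this isodecoder.

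tRNA-Asn took 3.86% ± 0.247 of the cytosolic tRNA counts and tRNA-Asp took 1.59% ± 0.0245 (SD, n = 2 each). In replicate 1 the Asn share was 4.03% (95% Clopper-Pearson interval 4.03 to 4.04%) and in replicate 2 it was 3.68% (3.67 to 3.70%). The Asp share was 1.57% (1.57 to 1.58%) in replicate 1 and 1.61% (1.60 to 1.62%) in replicate 2. These intervals cover counting error of PCR reads only, so the replicates lay farther apart than counting error for both isotypes. Asn made up 6.21% of the tRNA rows and Asp 3.19%, so both lay below their share of rows, with ratios of 0.622 and 0.499. Most isotypes did so in R1, where only Arg, Lys, Thr and Met lay above their share of rows. By this ratio Asn ranked 7th and Asp 10th of the isotypes in R1. In R2 the ratios were 0.654 for Asn and 0.923 for Asp, which ranked 9th and 6th. By mean R1 share Asn ranked 5th and Asp 11th of the isotypes. Asp and the next isotype, Ile at 1.58% ± 0.126 (SD, n = 2), differed by less than the spread, and in replicate 2 Ile was above Asp, with 1.67%. Asn and the isotype above it, Ser at 4.24% ± 0.496 (SD, n = 2), differed by less than the SD of Ser. Within each replicate, however, Ser was above Asn, with 4.59% in replicate 1 and 3.89% in replicate 2. The same order held in R2, with Ser at 6.90% and 5.97% and Asn at 4.38% and 3.74%.

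**Figure D1:**
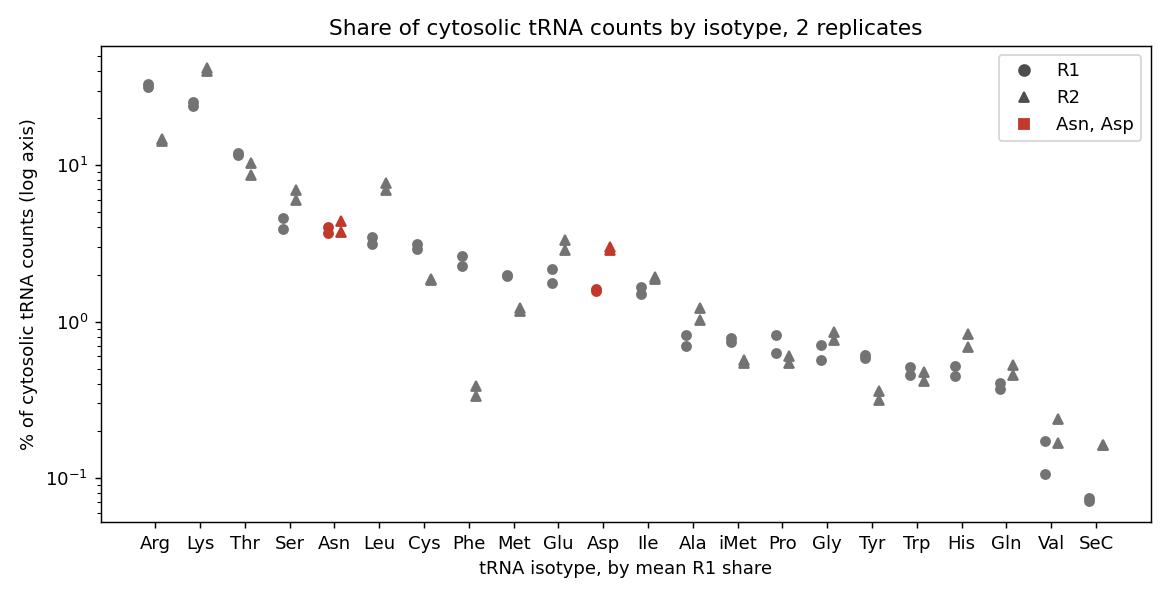
Share of cytosolic tRNA counts (y axis, percent, log scale) for the isotypes of named amino acids (x axis), with circles for R1, triangles for R2 and 1 symbol for each of the 2 replicates. Asn, in red, stood at 3.86% in R1 and 4.06% in R2, and Asp, also in red, at 1.59% in R1 and 2.94% in R2.

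The mates gave different shares for Asp and similar ones for Asn. Shifts between mates were not particular to Asp. Lys stood at 24.5% ± 1.06 in R1 and 41.2% ± 1.40 in R2, and Arg at 32.4% ± 1.12 and 14.5% ± 0.329 (SD, n = 2 each). The Asp share was 1.59% ± 0.0245 in R1 and 2.94% ± 0.109 in R2, a difference larger than the spread between replicates (SD, n = 2 each). The Asn share was 3.86% ± 0.247 in R1 and 4.06% ± 0.451 in R2, within that spread. Within each replicate it was somewhat higher in R2, at 4.38% against 4.03% in replicate 1 and 3.74% against 3.68% in replicate 2. Asn counts were 2.56 times Asp counts in R1 of replicate 1 and 2.29 times in replicate 2, but 1.53 and 1.24 times in R2. The Asp rank among isotypes was 11 in R1 and 8 in R2. The other isotypes with queuosine-bearing anticodons, Tyr and His, stood at 0.595% ± 0.0206 and 0.485% ± 0.0476 in R1 (SD, n = 2 each). In R2 Tyr was lower, at 0.336% ± 0.0334, and His higher, at 0.759% ± 0.102 (SD, n = 2 each).

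Within Asn, 6 of the 37 genes had a mean R1 count of at least 10000, and they held 97.0% of the Asn counts in replicate 1 and 96.8% in replicate 2. Within Asp, 4 of the 19 genes did so and held 99.1% and 98.8%. Among these genes are copies of tRNA-Asn-GTT-2, tRNA-Asn-GTT-3 and tRNA-Asp-GTC-2, whose reads cannot be assigned to a copy. The numbers of genes therefore describe how counts were listed, and not how many genes were active. At the other end, 13 Asn and 3 Asp genes had a mean R1 count under 10, with at most 6 counts in a library. Of the Asn genes, 5 had no count in any of the 4 tables: Asn-ATT-1-1, Asn-GTT-16-4, Asn-GTT-16-5, Asn-GTT-22-1 and Asn-GTT-23-1. A count of 0 allows up to 0.107 CPM in R1 of replicate 1 and 0.146 CPM in replicate 2. The anticodon ATT, with 2 listed Asn genes, had 1 R1 count in all, in Asn-ATT-1-2, so nearly all Asn reads came under the anticodon GTT.

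**Figure D2:**
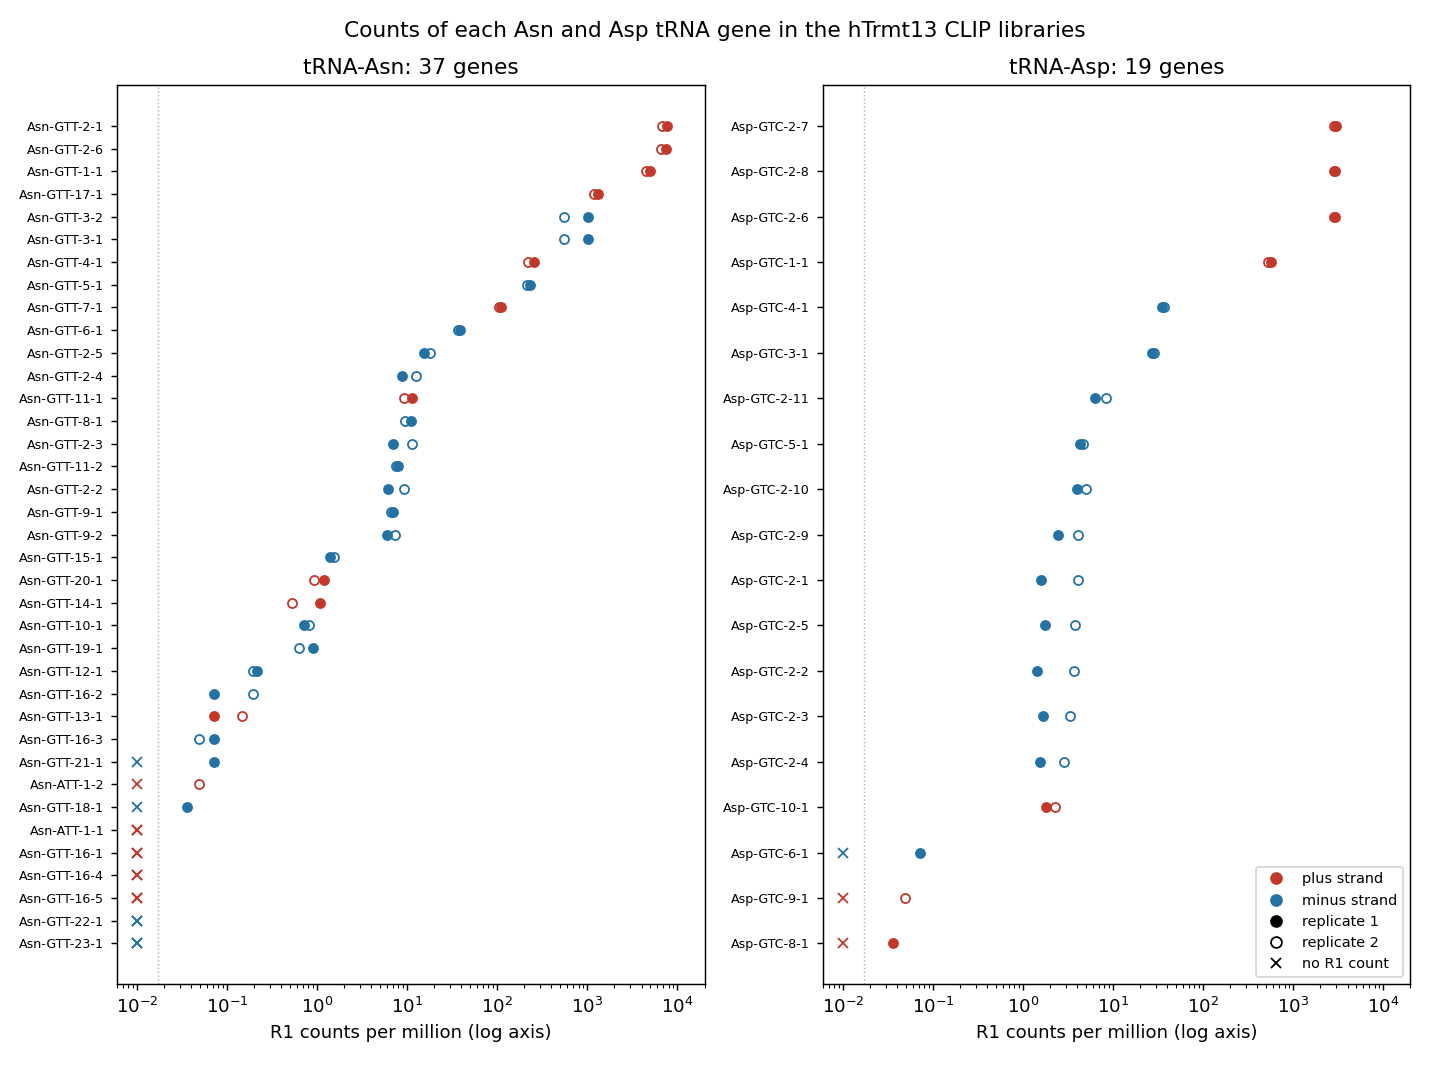
R1 CPM (x axis, log scale) of the 37 Asn genes and 19 Asp genes (y axis), filled for replicate 1 and open for replicate 2, coloured by the strand of the gene, with a cross left of the dotted line for each library without an R1 count of the gene. The 3 highest Asn and the 4 highest Asp genes are all on the plus strand.

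The isodecoder tRNA-Asn-GTT-2 led the Asn counts with 63.6% ± 1.34 of them (SD, n = 2). Its 6 copies together had 423531 R1 counts in replicate 1 and 276091 in replicate 2. It was followed by the single-copy tRNA-Asn-GTT-1 with 20.7% in replicate 1 and 21.3% in replicate 2. Next came tRNA-Asn-GTT-3 with 6.86% ± 2.17 over 2 copies and the single-copy tRNA-Asn-GTT-17 with 5.58% ± 0.289 (SD, n = 2 each). The shares of GTT-3 and GTT-17 differed by less than their spread. tRNA-Asn-GTT-4, GTT-5 and GTT-7 followed with 238 ± 28.1, 223 ± 12.7 and 108 ± 2.90 CPM (SD, n = 2 each), of which the first 2 lay within the spread of each other. In R2, however, GTT-5 stood above GTT-4, with 335 against 164 CPM in replicate 1 and 306 against 121 CPM in replicate 2. Of the 24 Asn isodecoders, the remaining 17 stood at or below 37.7 CPM in R1.

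Asp counts came almost wholly from 1 isodecoder. The 11 copies of tRNA-Asp-GTC-2 held 93.3% ± 0.0916 of them, with 245813 R1 counts in replicate 1 and 174305 in replicate 2 (SD, n = 2). tRNA-Asp-GTC-1, with 1 copy on chromosome 12, held 5.95% ± 0.142 and had 15946 and 10916 counts. The other 7 isodecoders were low. tRNA-Asp-GTC-4 stood at 35.7 ± 1.18 CPM, tRNA-Asp-GTC-3 at 27.5 ± 0.890 CPM and tRNA-Asp-GTC-5 at 4.46 ± 0.282 CPM (SD, n = 2 each).

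Copies of 1 isodecoder that lay on the same strand had like counts when their level was high. On the hg19 build used by the deposited tables, tRNA-Asn-GTT-2-1 (chr1:148248115-148248188, plus strand) had 213283 R1 counts in replicate 1 and 138625 in replicate 2. tRNA-Asn-GTT-2-6 (chr19:1383562-1383635, plus strand) had 209206 and 136413. The higher copy exceeded the lower by a factor of 1.02 in both replicates, less than the SD of either. tRNA-Asp-GTC-2-7 (chr6:27471523-27471594), tRNA-Asp-GTC-2-8 (chr12:96429799-96429870) and tRNA-Asp-GTC-2-6 (chr6:27447453-27447524), all on the plus strand, had 83161, 81404 and 80672 counts in replicate 1. In replicate 2 they had 58424, 57565 and 57594 counts. tRNA-Asn-GTT-3-2 (chr1:148760356-148760429) and tRNA-Asn-GTT-3-1 (chr1:148598314-148598387), on the minus strand, had 28442 and 28306 counts in replicate 1 and 11359 and 11442 in replicate 2.

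Copies of tRNA-Asn-GTT-2 and tRNA-Asp-GTC-2 on opposite strands lay far apart. The 2 plus-strand copies of tRNA-Asn-GTT-2 averaged 211244 R1 counts in replicate 1 and 137519 in replicate 2, against 260.5 and 263.25 for its 4 minus-strand copies. The plus-strand copies were 811-fold higher in replicate 1 and 522-fold higher in replicate 2. The minus-strand copies lie on chromosomes 1, 10, 13 and 17, and their R1 counts ran from 173 to 434 in replicate 1 and from 188 to 371 in replicate 2. The 3 plus-strand copies of tRNA-Asp-GTC-2 averaged 81746 counts in replicate 1 and 57861 in replicate 2, against 72 and 90.25 for its 8 minus-strand copies, folds of 1135 and 641. The 8 minus-strand copies ran from 40 to 176 counts in replicate 1 and from 59 to 170 in replicate 2, and 5 of them stand in a row on chromosome 1. In R2 the folds were 2349 and 2305 for tRNA-Asn-GTT-2 and 1844 and 1411 for tRNA-Asp-GTC-2. tRNA-Asn-GTT-11 was the other Asn isodecoder with copies on both strands past the minimum. It had 313 R1 counts on the plus strand and 220 on the minus strand in replicate 1, and 192 and 155 in replicate 2. Its R2 counts lay farther apart, with 241 against 31 in replicate 1 and 118 against 17 in replicate 2, folds of 7.77 and 6.94.

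The split between strands was not a property of these isotypes alone. Over all isotypes, 43 isodecoders had copies on both strands and a mean of at least 100 R1 counts. Of these 43, 37.2% had strand means more than 10-fold apart in both replicates, 25.6% with the plus-strand copies higher and 11.6% with them lower. In R2 the share was 53.5%, with 39.5% higher and 14% lower. In R1, tRNA-Asp-GTC-2 and tRNA-Asn-GTT-2 ranked 2nd and 3rd for plus over minus, behind the initiator isodecoder tRNA-iMet-CAT-1. In R2 the order was another: tRNA-Asn-GTT-2 had log2 ratios of 11.02 and 10.94 in replicates 1 and 2, above 10.79 and 10.53 for tRNA-iMet-CAT-1. The comparison by strand, its minimum and its fold were chosen after these values had been seen. The cause of the split was not tested. Where an isodecoder has several copies, a value given below for a single copy comes from its listed counts and is not that gene's level.

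**Figure D3:**
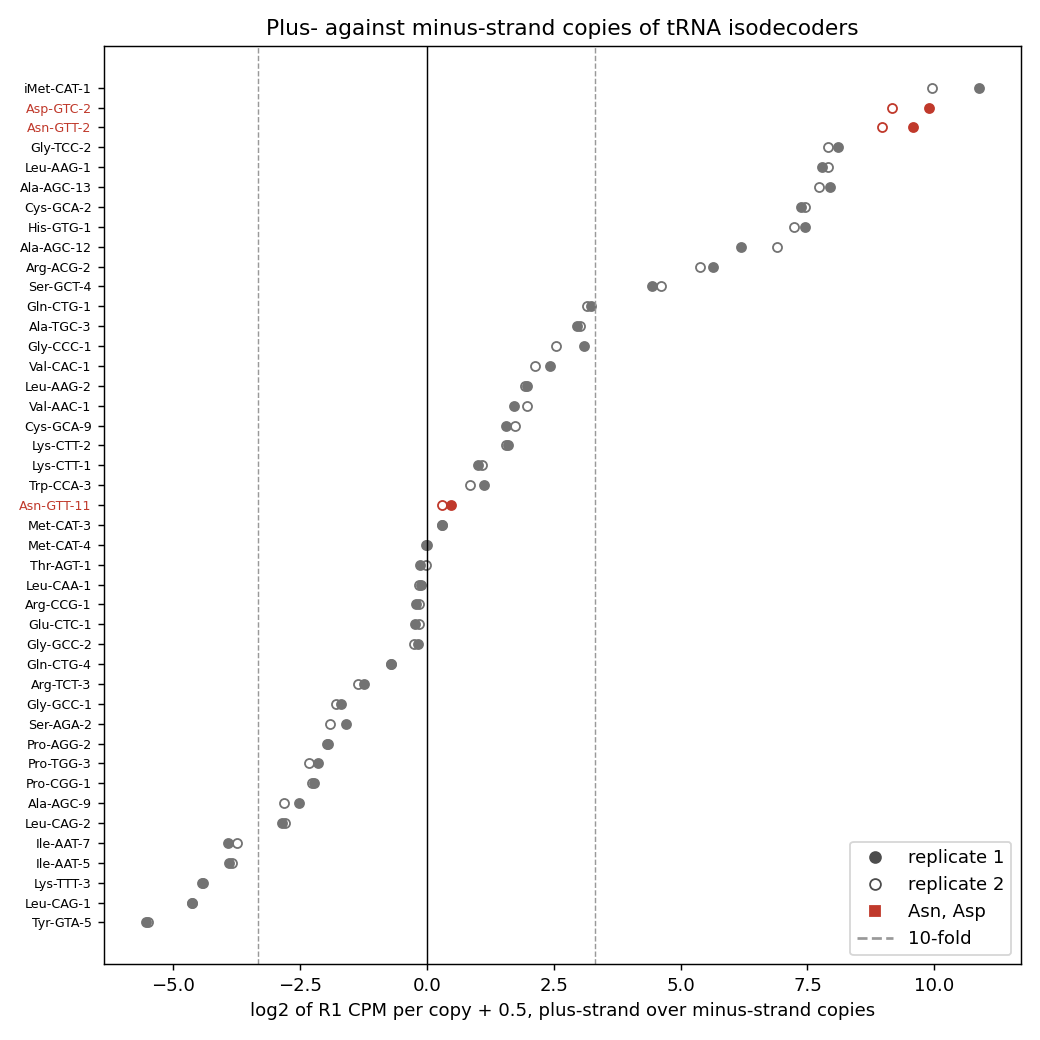
Log2 ratio of R1 CPM per copy + 0.5 (x axis), plus-strand over minus-strand copies, for the 43 isodecoders with copies on both strands (y axis), filled for replicate 1 and open for replicate 2. Asp-GTC-2 and Asn-GTT-2, in red, stood at 9.53 and 9.28 on average over the replicates, and Asn-GTT-11 at 0.39.

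Along chromosome 1 the genes with and without counts lay side by side. Of the 37 Asn genes, 32 are on chromosome 1, and 25 lie in 1 block (chr1:143663558-149711871). The counts listed for that block are not summed here, since they include tRNA-Asn-GTT-2-1, whose reads cannot be told apart from those of its copy on chromosome 19. In a second stretch (chr1:161397867-161591538) 7 Asp and 3 Asn genes stand close together. There tRNA-Asn-GTT-1-1 (chr1:161510031-161510104, plus strand) had 140044 and 91246 counts in replicates 1 and 2, and tRNA-Asn-GTT-17-1 (chr1:161591465-161591538, plus strand) had 36332 and 24738. Each is the next listed Asn or Asp gene after an Asp gene on the same strand. Those Asp genes, tRNA-Asp-GTC-10-1 and tRNA-Asp-GTC-9-1, had 50 and 0 counts in replicate 1 and 47 and 1 in replicate 2. All 7 Asp genes of this stretch were listed with at most 2.83 CPM on average. Of them, 5 are copies of tRNA-Asp-GTC-2, whose reads cannot be told apart from those of its plus-strand copies elsewhere. Their listed counts therefore do not show how much of that tRNA came from this stretch.

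The mates differed by gene within each isotype. A fold of R1 over R2 was called where the CPM + 0.5 differed more than 2-fold in the same direction in both replicates. Among the 40 Asn and Asp genes with a mean of at least 10 counts over the 4 tables, 3 were called higher in R1 (7.5%) and 0 lower. Over all 18237 features past the same minimum 13.8% were called, 1.37% higher and 12.4% lower. Over the 458 tRNA genes 32.3% were called, 22.7% higher and 9.61% lower. The genes called were tRNA-Asn-GTT-2-5, tRNA-Asn-GTT-11-2 and tRNA-Asp-GTC-10-1. tRNA-Asn-GTT-2-5 had 434 R1 and 32 R2 counts in replicate 1 and 371 and 32 in replicate 2. tRNA-Asp-GTC-10-1 had 50 and 47 R1 counts and no R2 count in either replicate. The mates are reads of the same fragments, so no test was made.

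The plus-strand copies of tRNA-Asp-GTC-2 and tRNA-Asn-GTT-2 had lower ratios of R1 over R2 than the median gene of their isotype. tRNA-Asp-GTC-2-7, 2-8 and 2-6 had mean log2 ratios of R1 over R2 of -0.92, -0.95 and -0.95, and with tRNA-Asp-GTC-5-1 they were the lowest 4 of the 16 Asp genes. The median Asp gene had -0.25 in replicate 1 and -0.27 in replicate 2. tRNA-Asn-GTT-2-1 had -0.23 in replicate 1 and 0.03 in replicate 2, both below the median of the 24 Asn genes, 0.51 and 0.47. tRNA-Asn-GTT-3-1 and 3-2 had ratios of 0.73 and 0.72 in replicate 1 and 0.78 and 0.77 in replicate 2, so their R1 share exceeded their R2 share in both libraries. The minus-strand copies of tRNA-Asn-GTT-2 had ratios between 0.69 and 2.26 in replicate 1 and between 1.58 and 2.37 in replicate 2.

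**Figure D4:**
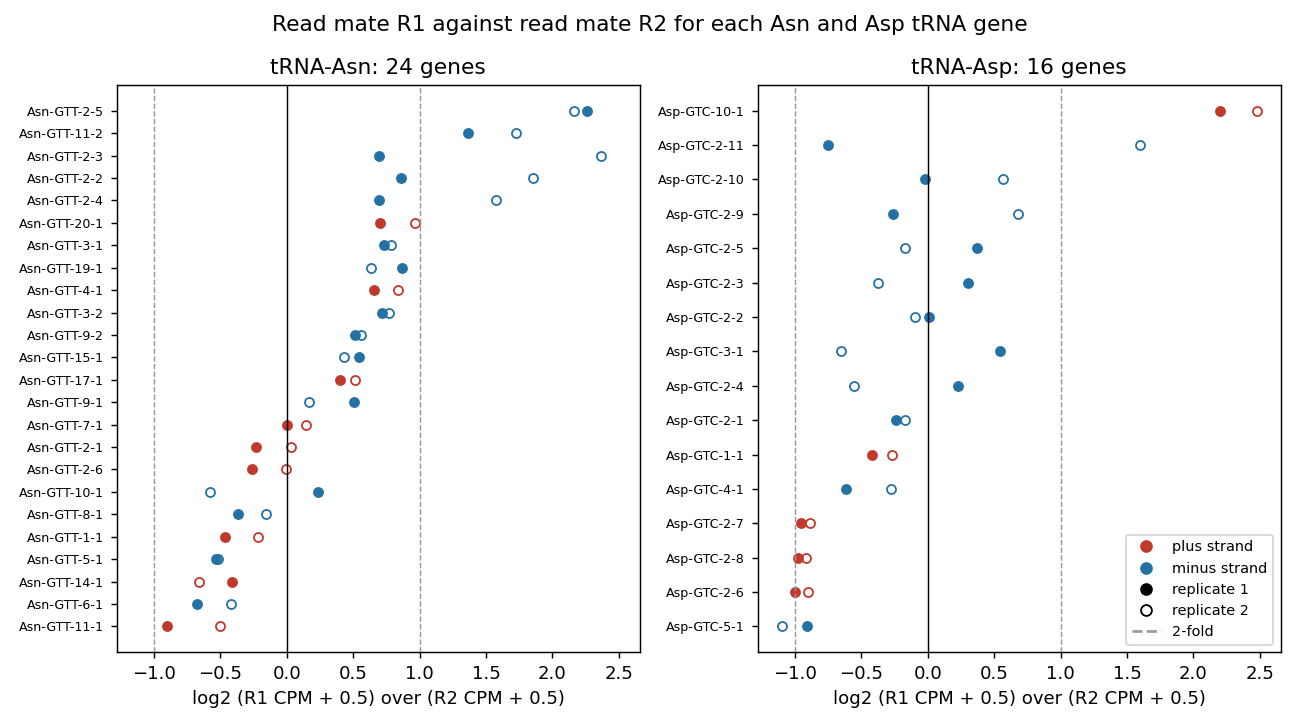
Log2 ratio of R1 over R2 (x axis, CPM + 0.5) for the 24 Asn and 16 Asp genes with a mean of at least 10 counts (y axis), filled for replicate 1 and open for replicate 2, coloured by strand, with dashed lines at 2-fold. The plus-strand copies of Asp-GTC-2 lie close to the lower 2-fold line, with means of -0.92 to -0.95, and Asp-GTC-10-1 lies at 2.20 and 2.48.

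Between replicates the abundant genes changed little, with 1 isodecoder apart. On total counts, tRNA-Asn-GTT-2-1 stood at 7642 CPM in replicate 1 and 6733 CPM in replicate 2, and tRNA-Asp-GTC-2-7 at 2980 and 2837 CPM. The 2 copies of tRNA-Asn-GTT-3 stood at 1019 and 1014 CPM in replicate 1 and at 552 and 556 CPM in replicate 2, with log2 ratios of replicate 2 over replicate 1 of -0.88 and -0.87. The other 8 genes with a mean of at least 10000 counts had ratios between -0.18 and -0.05. A ratio past 2-fold was found for 2 of 40 Asn and Asp genes (5%), both higher in replicate 2. Over all 18723 features 36.2% were past 2-fold, 36.1% higher and 0.0374% lower. Over the 463 tRNA genes 1.73% were, 1.08% higher and 0.648% lower. The 2 genes were minus-strand copies with few counts, tRNA-Asp-GTC-2-1 with 44 counts in replicate 1 and 84 in replicate 2, and tRNA-Asp-GTC-2-2 with 40 and 76.

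That count rested on the scaling. Under TMM scaling, which changes log2 ratios by -1.09 before the pseudocount and by less for low genes with it, 21 of the 40 genes were past 2-fold, all lower in replicate 2, and the median of the 40 was -1.01 against -0.04 on total counts. The median of all features was 0.00 under TMM, against 0.89 on total counts, and that of the tRNA genes was -1.04, against -0.01. The difference between tRNA and other features was thus measured, but which of them changed was not. With a pseudocount of 1 CPM 0 genes were past 2-fold. On total counts tRNA-Asn-GTT-3 had a log2 ratio of -0.88, against a median of -0.01 over the tRNA genes.

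Of the 56 genes, 26 overlap a listed feature that is not a tRNA. In 7 cases the gene is the sole tRNA of the feature. The counts of gene and feature were close for the 4 genes with at least 96 counts in each library. Among these is tRNA-Asp-GTC-2-8, with 81404 counts in replicate 1 against 81536 for LTA4H on the opposite strand. NDUFS7 (ENSG00000115286.19_3, plus strand), a complex I subunit gene of the respiratory chain, starts just before tRNA-Asn-GTT-2-6 and had 209272 R1 counts in replicate 1, 66 more than the tRNA, and 136526 in replicate 2, 113 more. tRNA-Asp-GTC-1-1 had 15946 counts in replicate 1, against 15947 for the lincRNA RP11-181C3.1 on the opposite strand, and 10916 against 10921 in replicate 2. tRNA-Asp-GTC-5-1 had 119 counts in replicate 1, against 123 for AC005592.2 on the opposite strand, and 96 against 107 in replicate 2. The other 3, tRNA-Asp-GTC-8-1, tRNA-Asn-GTT-16-1 and tRNA-Asn-GTT-16-4, had at most 1 count, against 91 and 168 for CLIP1, 18 and 16 for RP6-206I17.2 and 14 and 22 for RP11-495P10.1 in replicates 1 and 2. Larger features held several tRNAs. RP11-25K21.6, which spans 6 tRNA rows including tRNA-Asn-GTT-1-1, had 55 counts beyond its tRNAs in replicate 1 of 197568. RP11-122G18.10 spans 25 tRNA rows, among them 5 copies of tRNA-Asp-GTC-2 that each held 40 to 49 of its 64385 counts in replicate 1.

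The mRNAs of the enzymes that act on these tRNAs were recovered at low levels. All 17 listed nuclear genes had a mean R1 count of at least 10, with a median of 2.25 CPM, against 3.41 CPM over 13207 protein-coding genes. The cytosolic synthetase genes NARS and DARS stood at 5.31 ± 2.39 and 7.80 ± 3.33 CPM, and the mitochondrial NARS2 at 7.59 ± 4.30 CPM (SD, n = 2 each). The queuosine enzyme genes QTRT1 and QTRT2 stood at 1.88 ± 0.635 and 5.08 ± 3.18 CPM, and TRDMT1 at 1.90 ± 1.02 CPM (SD, n = 2 each). Of the 17 genes, 7 were more than 2-fold higher in replicate 2 on total counts and 0 lower, against 41.3% higher and 0.0227% lower over all protein-coding genes. These levels are not per length, and genes are not ranked by them. The mitochondrial tRNAs of the same amino acids, MT-TN for asparagine and MT-TD for aspartate, stood at 606 ± 18.5 and 97.4 ± 0.261 CPM (SD, n = 2 each), while the cytosolic genes summed to 24216 CPM for Asn and 9447 CPM for Asp in replicate 1 and 20768 and 9067 CPM in replicate 2.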

How the data were processed

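Raw counts of reads in each listed feature were deposited, 1 table for each mate and library. Per the labels' protocols, bound RNA was treated with Alkb enzymes, which take off some modifications, before an adaptor was ligated and cDNA made. The tools Bowtie2 (2.3.5.1) and bedtools (2.24.0) and the build hg19 (GRCh37) stand in the submitters' processing notes. How multiply matching reads and strand were handled is not given in the sources available. In the counts, features on the strand opposite a tRNA, such as LTA4H and RP11-181C3.1, held nearly the same number as the tRNA. After 13 repeated lines were dropped, 741078 features remained. Of 32 Asn and Asp genes matched by symbol to RefSeq, 31 had its length when starts count from 0, and printed tRNA starts are 1-based. R1 totals were 27907799 and 20590398 counts.

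With 1 group and no control, no test between conditions was possible. CPM, shares with exact Clopper-Pearson 95% intervals and folds past 2-fold (pseudocount 0.5 CPM, mean count of at least 10) were computed in Python 3.11.15. The fold rule was checked on simulated counts with counting error only, so that check does not cover the spread between these replicates. TMM and size factors came from edgeR 4.0.16 and DESeq2 1.42.0 in R 4.3.3, as alternatives. Further alternatives were the R2 table, the sum of mates, leaving out a replicate, other denominators, no filter, another pseudocount, and dropping each isotype's highest gene or the genes that overlap another feature.

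The members and lists were chosen with earlier results of these data known. Named genes are the 8 highest of each isotype, the highest copy of each isodecoder with several copies, the 2 with the largest folds in each direction, and those without counts. Others, such as tRNA-Asn-GTT-6-1, 7-1, 11-2 and tRNA-Asp-GTC-9-1, were chosen after their values were seen.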

Additional observations from a re-analysis of the deposited data

How the results depend on the processing

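With both replicates kept, the comparisons gave 23 values under other settings, of which 11 stayed within 1 SD of the 2 replicates (counts of genes within 1.5 times) and 12 moved. Dropping 1 of 2 libraries cannot shift their mean by a whole SD, so that check shows no stability. Asn took 4.32% of tRNA counts without the highest gene of each isotype and 3.09% without genes overlapping another listed feature. Asp took 2.94% in R2, 1.99% with mates summed, 1.63% without lookalikes in the denominator, 1.80% without the highest gene of each isotype and 1.73% without overlapping genes. The Asp SD was 0.0245, so small shifts counted as moved. The highest Asp gene held 31.8% of Asp counts in R2, against 31.4% in R1. With either replicate left out, Asn took 3.68 to 4.03%, Asp 1.57 to 1.61%, the highest Asn gene 31.6 to 32.4% and the highest Asp gene 31.3 to 31.5%. Between replicates, 2 genes were past 2-fold on total counts, 21 under TMM scaling, 21 with DESeq2 size factors, 7 in R2 (6 higher and 1 lower in replicate 2) and 0 with a pseudocount of 1 CPM. Between mates, 3 were past 2-fold in both replicates, and 4 to 8 with either replicate left out. Of 48 CPM values of 24 named genes in R2 or with mates summed, 30 lay beyond 1 SD, 20 higher and 10 lower, and the cause was not tested. No paired analysis was possible because all samples form 1 group. Genes under 10 counts are limited by depth, since a count of 0 allows up to 0.107 CPM in R1 of replicate 1.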
